A study of Mus musculus with 18 samples.

Results

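The genes described here are the mitochondrially encoded genes of the mouse, chosen as the rows of the deposited count table whose symbol begins with mt-. There are 37 of them among 55487 gene identifiers: 13 encode proteins, 2 encode ribosomal RNAs and 22 encode transfer RNAs. All lie on chromosome M of GRCm38. BV2 cells, an immortalised mouse microglial line, were given 10 µM oxyhemoglobin, the oxygen-carrying form of hemoglobin, and were harvested at 12 h or 24 h, and untreated cells stood for 0 h. Nuclear and cytoplasmic RNA was taken from each, which makes 6 groups: nuclear 0 h, 12 h and 24 h and cytoplasmic 0 h, 12 h and 24 h. All groups come from the same line, and the labels name no untreated group at 12 h or 24 h, so the treatment and the time in culture cannot be told apart.

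Each group had 3 libraries, 18 in all, and nothing in the labels says whether the 3 came from separate cultures. The table holds 1 value for each gene and group, and 3 times that value is a whole number throughout, so it is the mean count of 3 libraries. Reads are therefore given as sums over the 3 libraries, the spread between libraries is unknown, and no test and no p-value is given. The intervals are 95% intervals of counting error alone, and PCR reads are not independent molecules. These intervals are exact, except for shifts of the nuclear to cytoplasmic ratio, where they are normal approximations. Summed reads were 14652566, 15899566 and 16031875 in the nuclear groups and 22379595, 16537318 and 19537309 in the cytoplasmic groups at 0 h, 12 h and 24 h.

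Mitochondrial DNA is a small circle that is copied into long RNAs from both strands. The heavy-strand transcript carries both ribosomal RNAs, 12 of the mRNAs and most tRNAs, while the light-strand transcript carries mt-Nd6 and the remaining tRNAs. The tRNAs sit between the other genes, and the enzymes that cut them out release the mRNAs and rRNAs on either side; the rRNAs are usually made in excess of the mRNAs. The proteins are core subunits of respiratory complexes I, III, IV and V. The RNAs are made and kept inside the organelle, which lies in the cytoplasm.

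In the annotation the 37 genes form 36 neighbouring pairs. Of these pairs, 9 overlap and 25 are 0 to 3 bases apart. The light strand holds 9 of the genes, 8 of them tRNAs. A short read can therefore cross from a tRNA into its neighbour, and how a read over such a junction was counted is not stated. Nor is the strand setting of the counting, so reads from a gene and from the RNA opposite it cannot be told apart.

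The tRNAs on which the results below turn are shown 5′ to 3′ as the annotated gene reads, with the anticodon in capitals, from the GENCODE transcripts for GRCm38. The first 3 sit next to each other between mt-Nd4 and mt-Nd5 at chrM:11546-11612, chrM:11613-11671 and chrM:11671-11741, and mt-Tm sits just before mt-Nd2 at chrM:3845-3913, all on the heavy strand. The light-strand tRNAs mt-Tc, at chrM:5192-5257, and mt-Tp, at chrM:15356-15422, held the most cytoplasmic reads of any tRNA.
mt-Th: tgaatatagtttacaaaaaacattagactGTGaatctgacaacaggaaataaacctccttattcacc
mt-Ts2: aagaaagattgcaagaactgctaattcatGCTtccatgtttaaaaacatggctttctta
mt-Tl2: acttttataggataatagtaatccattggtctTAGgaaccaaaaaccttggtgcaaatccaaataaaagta
mt-Tm: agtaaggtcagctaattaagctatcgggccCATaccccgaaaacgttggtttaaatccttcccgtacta
mt-Tc: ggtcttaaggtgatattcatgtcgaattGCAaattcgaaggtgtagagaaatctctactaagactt
mt-Tp: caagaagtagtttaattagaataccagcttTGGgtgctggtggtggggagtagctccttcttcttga

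Part of the mitochondrial DNA also exists in the nuclear genome. On chromosome 1, a row of 7 annotated pseudogenes at chr1:24611535-24616188 runs parallel to chrM:6390-11042, 4654 against 4653 bases, and each aligned copy is 99.7% to 100% identical to its mitochondrial gene. The copied stretch begins inside mt-Co1 and ends inside mt-Nd4, and it holds mt-Co2, mt-Atp8, mt-Atp6, mt-Co3, mt-Nd3, mt-Nd4l and 5 tRNAs whole. The pair below shows how little separates a gene from its copy: mt-Nd3 and the pseudogene Gm28438 differ in their aligned stretch by T3C alone, counted from the first base of mt-Nd3, and the differing base is in capitals (chrM:9459-9491, plus strand; chr1:24613087-24613119, minus strand).
mt-Nd3: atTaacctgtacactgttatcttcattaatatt
Gm28438: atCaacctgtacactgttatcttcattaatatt
A read that matches both equally can be placed on either or dropped, and the treatment of such reads is not stated.

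The cells' labelled type was checked on 7 microglial markers. These had 638, 789 and 867 reads in the nuclear groups and 162, 542 and 755 in the cytoplasmic groups. P2ry12 was at or near 0, with at most 5 reads in a group, and the others all had nuclear reads. In cytoplasmic RNA most of the microglial reads were from Cd68 (48, 392 and 565) and Tmem119 (88, 127 and 156). Aif1, Csf1r, Cx3cr1 and Itgam had at most 18 reads in any cytoplasmic group. The 12 markers of other cell types had 204, 197 and 250 nuclear reads and 223, 590 and 300 cytoplasmic reads. Of these, Mbp, an oligodendrocyte marker, had 85, 64 and 105 nuclear and 193, 66 and 253 cytoplasmic reads. At cytoplasmic 0 h that was more than the 7 microglial markers together. The cytoplasmic 12 h group stood apart: Actc1, a cardiac muscle actin, had 369 reads there and 0 or 1 in all other groups, and Col1a1 and Col3a1 had 45 and 40; Aqp4 and Snap25 had no reads in any group. What part this has in the cytoplasmic 12 h values was not tested.

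Mitochondrially encoded RNA was a minor part of the nuclear libraries and a larger part of the cytoplasmic ones. The 37 genes took 0.641%, 0.518% and 0.667% of nuclear counts and 5.45%, 5.08% and 6.76% of cytoplasmic counts at 0 h, 12 h and 24 h. A single identifier without a symbol took 16.3% to 22.1% of nuclear counts; without it the nuclear shares were 0.787%, 0.618% and 0.857%. In both fractions the share was lowest at 12 h and highest at 24 h. In bulk RNA, fewer mitochondria per cell and less RNA in each mitochondrion cannot be told apart.

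The reads counted to that RNA moved from mRNA toward rRNA. The mRNAs gave 80.0%, 66.2% and 70.6% of the mitochondrial reads in the nuclear groups, and 79.2%, 59.6% and 71.9% in the cytoplasmic groups. The rRNAs gave 18.9%, 33.2% and 28.4% in the nuclear groups, and 20.4%, 40.1% and 27.8% in the cytoplasmic groups. Both fractions thus had their largest rRNA share at 12 h and a partial return at 24 h. These are shares of counted reads, and reads counted to the nuclear copies are not in them. What part the preparation of the libraries has in the rRNA shares was not tested. The 22 tRNAs never gave more than 1.15% of the nuclear or 0.397% of the cytoplasmic mitochondrial reads.

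**Figure D1:**
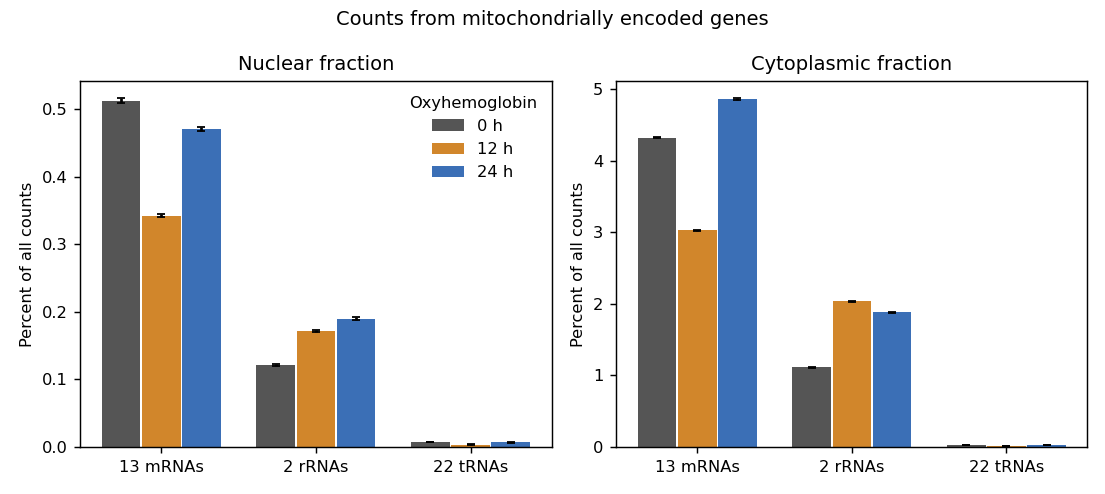
Percent of all counts taken by the 13 mRNAs, the 2 rRNAs and the 22 tRNAs at 0 h, 12 h and 24 h of oxyhemoglobin, nuclear fraction left and cytoplasmic fraction right, on separate axes. Bars are single values from reads summed over 3 libraries with exact 95% counting intervals, and the rRNA bars at 12 h and 24 h stand above the 0 h bar in both panels.

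Time comparisons use CPM, counts relative to the size of the library, scaled within a fraction by TMM, the trimmed mean of log ratios over all genes, and a gene was counted as higher or lower where it differed by at least 2-fold and its counting interval excluded no change. This was asked of genes that reached the equivalent of a mean count of 10 in at least 1 of the groups. Among the members, 16 of 37 reached it in the nuclear groups and 25 of 37 in the cytoplasmic groups, so the counts that follow cover the better measured members and not all.

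In nuclear RNA at 12 h, 1 member was higher and 3 were lower among the 16 compared, beside 14.6% of all genes compared that passed in either direction. At 24 h against 0 h, 2 were higher and 1 was lower, beside 13.6% of all genes. In cytoplasmic RNA at 12 h, 2 were higher and 4 were lower among the 25 compared, beside 20.6% of all genes. The 4 nuclear calls at 12 h became 7 by total counts, and the 6 cytoplasmic calls at 12 h became 10 with TMM over all 6 groups. The share of all genes under these other scalings is not given, so the 7 and the 10 have no background to be read against. In cytoplasmic RNA at 24 h against 0 h, 6 were higher and none was lower, beside 17.0% of all genes. At 24 h against 12 h, 3 members were higher in nuclear RNA, beside 3.02% of all genes, and 2 in cytoplasmic RNA, beside 4.78%, and none was lower. Of these calls, mt-Nd3 in nuclear RNA and mt-Nd4l in cytoplasmic RNA fell under 2-fold with their nuclear copies added. The members' counts against 0 h lie near or a little above those backgrounds and are no result about the 37 genes as a set.

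Of the members called higher in both fractions, mt-Rnr1 changed most. mt-Rnr1, the 12S rRNA of the small mitochondrial ribosomal subunit, stood at 26.1, 143.8 and 199.3 normalised CPM in the nuclear groups and at 133.1, 1382 and 1218 normalised CPM in the cytoplasmic groups at 0 h, 12 h and 24 h. Both treated groups were far above the untreated one in both fractions. The log2 ratio in nuclear RNA was 2.46 at 12 h (interval 2.31 to 2.61) and 2.93 at 24 h (2.79 to 3.08). In cytoplasmic RNA it was 3.38 at 12 h (3.32 to 3.43) and 3.19 at 24 h (3.14 to 3.25). Under the other scalings tried, the ratios stayed between 2.13 and 2.93 in nuclear RNA and between 2.64 and 3.38 in cytoplasmic RNA, so the direction did not turn.

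mt-Rnr2, the 16S rRNA of the large subunit, moved the same way by less. It stood at 1049, 1628 and 1873 normalised CPM in the nuclear groups and at 11131, 19657 and 16735 normalised CPM in the cytoplasmic groups. The log2 ratios of 0.63 and 0.84 in nuclear RNA and 0.82 and 0.59 in cytoplasmic RNA at 12 h and 24 h were under 2-fold. Per base of gene, mt-Rnr2 had 24.2 times the reads of mt-Rnr1 in nuclear RNA at 0 h, 6.83 times at 12 h and 5.67 times at 24 h. In cytoplasmic RNA it had 50.5 times the reads of mt-Rnr1 at 0 h, 8.58 times at 12 h and 8.29 times at 24 h. The counting intervals of these ratios do not overlap between 0 h and either later time. Whether both rRNAs were captured alike in all libraries was not tested. The rRNA genes are neighbours on 1 transcript, with mt-Tv between them, and mt-Tv had 8, 3 and 6 nuclear reads and 4, 18 and 22 cytoplasmic reads.

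**Figure D2:**
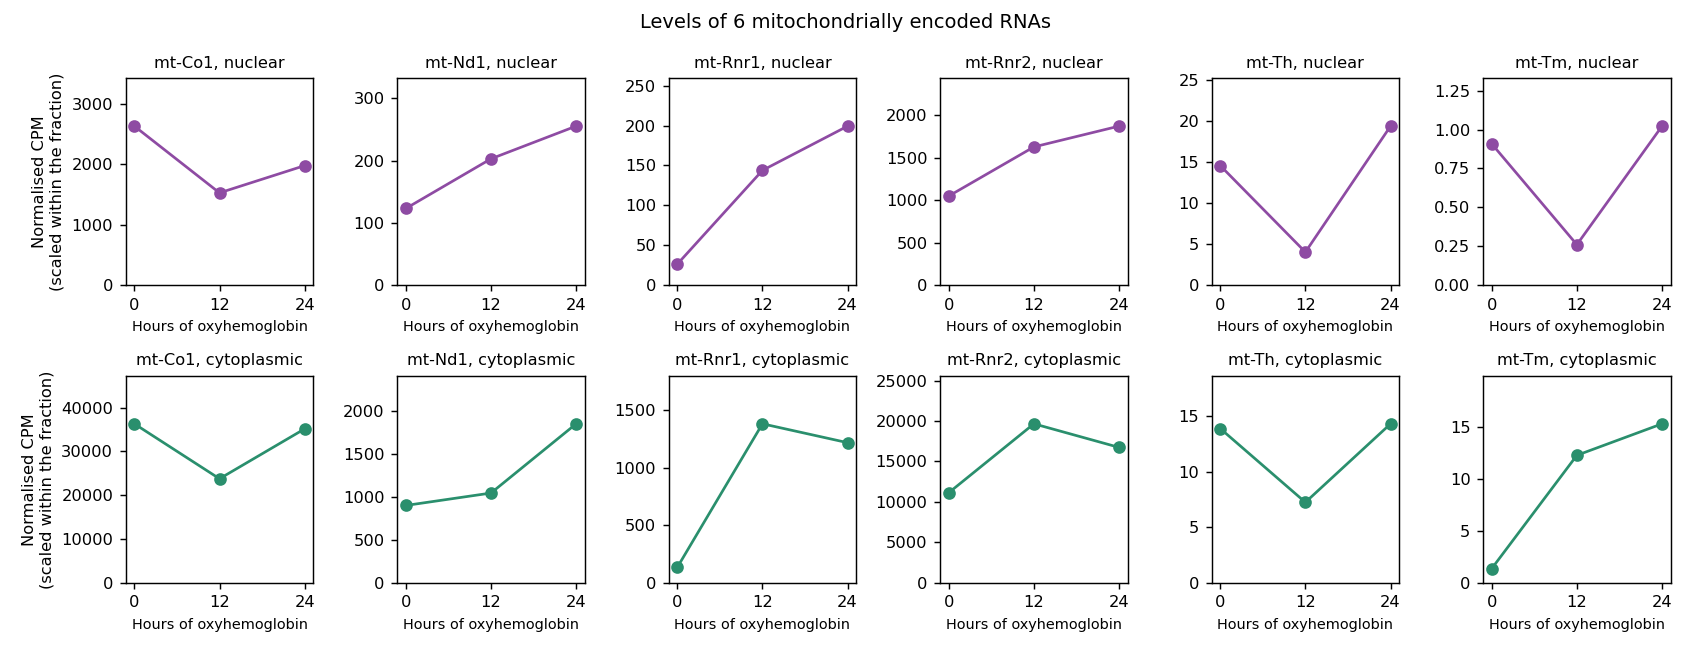
Normalised CPM of mt-Co1, mt-Nd1, mt-Rnr1, mt-Rnr2, mt-Th and mt-Tm at 0 h, 12 h and 24 h, nuclear groups in the upper row and cytoplasmic groups in the lower row, each point 1 group, with axes from 0 and scaling within the fraction. mt-Rnr1 is low at 0 h in both rows, mt-Th dips at 12 h in both rows, and mt-Tm is higher after treatment in the cytoplasmic row.

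Among the mRNAs, mt-Co1 held the most reads of any single gene. It encodes the catalytic subunit of complex IV, cytochrome c oxidase. It gave 46.2%, 28.5% and 27.1% of the mitochondrial reads in the nuclear groups and 65.7%, 45.3% and 54.4% in the cytoplasmic groups at 0 h, 12 h and 24 h. Its share was thus highest at 0 h in both fractions. It stood at 2627, 1523 and 1974 normalised CPM in nuclear RNA and at 36313, 23759 and 35162 normalised CPM in cytoplasmic RNA. Its log2 ratios were -0.79 and -0.41 in nuclear RNA and -0.61 and -0.05 in cytoplasmic RNA at 12 h and 24 h, all under 2-fold in size. By total counts the nuclear value at 12 h passed 2-fold.

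The summed mRNA reads were also lower at 12 h. Their log2 ratio at 12 h was -0.36 in nuclear RNA and -0.48 in cytoplasmic RNA, and all scalings kept it below 0. At 24 h it was 0.18 in nuclear RNA, but -0.12 by total counts and -0.35 on the log2(TPM + 1) scale. At 24 h it was 0.08 in cytoplasmic RNA, but -0.42 on the log2(TPM + 1) scale. A direction at 24 h therefore depends on the scale.

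The other complex IV subunits, mt-Co2 and mt-Co3, both lie whole in the stretch copied on chromosome 1. mt-Co3 had 91, 46 and 61 nuclear reads and 2671, 721 and 1828 cytoplasmic reads at 0 h, 12 h and 24 h. It was lower in cytoplasmic RNA at 12 h, with a log2 ratio of -1.42 (-1.55 to -1.31), and its 24 h value of -0.44 did not pass. In nuclear RNA its log2 ratios were -0.89 at 12 h and -0.41 at 24 h, under 2-fold, though the 12 h value passed by total counts. With its copy added, the nuclear 12 h value was -1.36 (-1.64 to -1.08) and passed, while the nuclear 24 h value was -0.59 and did not. mt-Co2 had 15, 20 and 26 nuclear reads and 731, 544 and 960 cytoplasmic reads, and its cytoplasmic log2 ratios of 0.04 and 0.50 did not pass. With the reads of its copies added, mt-Co2 had 777 cytoplasmic reads at 12 h against 1688 at 0 h and a log2 ratio of -0.65 (-0.78 to -0.53). The cytoplasmic 12 h value of mt-Co3 with its copy was -1.36. The 12 h value of mt-Co2 therefore depends on how reads were divided between the gene and its copies.

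Complex V, ATP synthase, has 2 mitochondrially encoded subunits whose genes overlap by 43 bases. mt-Atp6, part of the proton channel, had 12, 10 and 16 nuclear reads and 242, 83 and 161 cytoplasmic reads at 0 h, 12 h and 24 h. It was lower in cytoplasmic RNA at 12 h, with a log2 ratio of -1.08 (-1.46 to -0.71), and not at 24 h, at -0.48. With its copy added the 12 h value was -0.93, under 2-fold. mt-Atp8 had at most 10 reads in any group and was not compared. mt-Cytb, the single mitochondrially encoded subunit of complex III, had log2 ratios of 0.49 and 0.67 in nuclear RNA and 0.07 and 0.66 in cytoplasmic RNA, none past 2-fold.

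Complex I, NADH dehydrogenase, takes 7 subunits from mitochondrial DNA, and its mRNAs gave 3 of the 6 members that were higher in cytoplasmic RNA at 24 h. mt-Nd1 stood at 123.0, 202.8 and 255.4 normalised CPM in nuclear RNA and at 897.4, 1042 and 1846 normalised CPM in cytoplasmic RNA at 0 h, 12 h and 24 h. Both treated groups were above the untreated one in both fractions on this scale, while on the log2(TPM + 1) scale the cytoplasmic 12 h value was -0.52. At 24 h the log2 ratio was 1.05 (0.98 to 1.13) in nuclear RNA and 1.04 (1.02 to 1.07) in cytoplasmic RNA. These values sit at the threshold: the nuclear one was 0.44 on the log2(TPM + 1) scale, and it was no longer called by total counts.

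mt-Nd2 and mt-Nd4 were the other complex I mRNAs that passed. mt-Nd2 stood at 340.9, 424.4 and 701.5 normalised CPM in cytoplasmic RNA, with a log2 ratio of 1.04 at 24 h (1.00 to 1.08). mt-Nd4 stood at 422.5, 614.4 and 920.4 normalised CPM in cytoplasmic RNA, with a log2 ratio of 1.12 at 24 h (1.09 to 1.16). In nuclear RNA the 24 h log2 ratios were 0.83 for mt-Nd2 and 0.31 for mt-Nd4, under 2-fold. With TMM over all 6 groups, mt-Nd1 and mt-Nd2 lost their cytoplasmic calls at 24 h and mt-Nd4 kept its own. On the log2(TPM + 1) scale the cytoplasmic 24 h values were 0.51 for mt-Nd1, 0.51 for mt-Nd2 and 0.59 for mt-Nd4, all under 2-fold.

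mt-Nd5 and mt-Nd6 lie end to end on opposite strands and overlap by 14 bases. mt-Nd5 had log2 ratios of -0.08 and 0.78 in nuclear RNA and -0.01 and 0.47 in cytoplasmic RNA at 12 h and 24 h. mt-Nd6, the light-strand mRNA, had -0.19 and 0.73 in nuclear RNA and -0.38 and 0.10 in cytoplasmic RNA. None passed 2-fold. Per base of gene, mt-Nd5 had 0.939, 1.02 and 0.969 times the reads of mt-Nd6 in nuclear RNA, against 0.530, 0.685 and 0.683 times in cytoplasmic RNA, at 0 h, 12 h and 24 h. Reads counted to mt-Nd6 were therefore the more frequent of the pair per base in all 3 cytoplasmic groups and near parity in the nuclear ones; with the strand setting not stated, they may include RNA from the opposite strand.

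mt-Nd3 and mt-Nd4l lie in the stretch copied on chromosome 1 and were near the limit of detection. mt-Nd3 had 49, 7 and 18 nuclear reads and 43, 11 and 39 cytoplasmic reads at 0 h, 12 h and 24 h. It was lower in nuclear RNA at 12 h, with a log2 ratio of -2.71 (-4.10 to -1.56), and at 24 h, with -1.27 (-2.14 to -0.47). In cytoplasmic RNA it was lower at 12 h, at -1.50 (-2.61 to -0.52), and stood at -0.03 at 24 h. With its copy added, the nuclear values were -1.35 at 12 h and -0.74 at 24 h and the cytoplasmic 12 h value -0.95, and of these the nuclear 12 h value alone passed. Between 12 h and 24 h mt-Nd3 was higher at 24 h in both fractions, by 1.43 in nuclear and 1.47 in cytoplasmic RNA. mt-Nd4l, with 30, 12 and 39 cytoplasmic reads, was higher by 1.35 in cytoplasmic RNA. With its copy added, mt-Nd4l had cytoplasmic log2 ratios against 0 h of -0.49 at 12 h and 0.15 at 24 h, under 2-fold apart. The nuclear values of mt-Nd3 with its copy are likewise under 2-fold apart. Its cytoplasmic values with the copy, -0.95 and 0.14, are more than 2-fold apart.

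**Figure D3:**
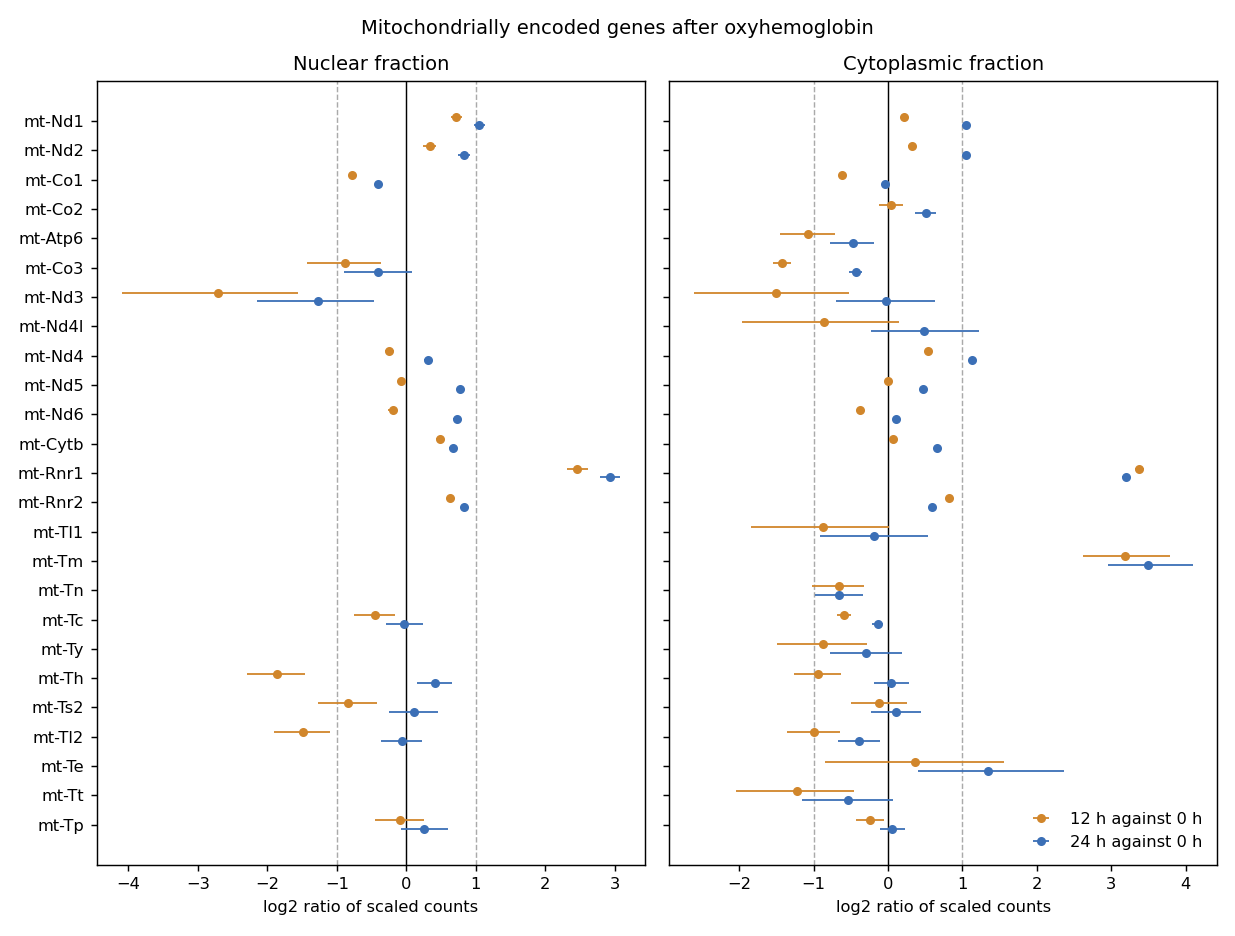
log2 ratio of scaled counts at 12 h and 24 h against 0 h for each member compared, nuclear fraction left and cytoplasmic fraction right, with mRNAs above, then rRNAs, then tRNAs. Points are groups of 3 summed libraries, bars are exact 95% counting intervals and dashed lines mark 2-fold; mt-Rnr1 in both panels and mt-Tm in the cytoplasmic panel lie farthest to the right.

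The tRNAs were poorly covered. Of 22, there were 7, 7 and 6 without a read in the nuclear groups and 4, 5 and 3 without a read in the cytoplasmic groups at 0 h, 12 h and 24 h; a count of 0 allows up to 0.134 to 0.205 CPM. The nuclear groups had 1079, 546 and 1058 tRNA reads and the cytoplasmic groups 4841, 2546 and 4444. The summed log2 ratio was -0.88 in nuclear RNA and -0.46 in cytoplasmic RNA at 12 h, below 0 under all scalings tried. At 24 h it was 0.14 in nuclear RNA, but -0.16 by total counts and -0.47 on the log2(TPM + 1) scale. At 24 h in cytoplasmic RNA it was -0.01, but 0.07 by total counts and -0.55 on the log2(TPM + 1) scale.

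mt-Tc, the cysteine tRNA, had 245, 167 and 214 nuclear reads and 3012, 1445 and 2533 cytoplasmic reads at 0 h, 12 h and 24 h, the most of any tRNA in cytoplasmic RNA. Its neighbour mt-Ty, the tyrosine tRNA 2 bases away on the same strand, had 86, 34 and 65 cytoplasmic reads. mt-Tp, the proline tRNA, had 145, 127 and 154 nuclear reads and 615, 378 and 593 cytoplasmic reads. Per base, mt-Tc thus had 35.6 times the cytoplasmic reads of its neighbour mt-Ty at 0 h (28.7 to 44.6). mt-Tc and mt-Tp did not pass at either time, with cytoplasmic log2 ratios of -0.60 and -0.14 for mt-Tc and -0.24 and 0.06 for mt-Tp.

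The adjacent tRNAs for histidine, serine and leucine, mt-Th, mt-Ts2 and mt-Tl2, were together 54.2%, 37.0% and 56.0% of nuclear tRNA reads, against 14.8%, 12.2% and 14.1% of cytoplasmic tRNA reads, at 0 h, 12 h and 24 h. mt-Th had 241, 62 and 285 nuclear reads and 307, 116 and 293 cytoplasmic reads. In both fractions 12 h was the lowest group and 24 h was close to 0 h. In nuclear RNA mt-Th was lower at 12 h, with a log2 ratio of -1.86 (-2.29 to -1.45), and higher at 24 h than at 12 h by 2.27 (1.87 to 2.69).

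mt-Tl2 and mt-Ts2 were also lowest at 12 h in nuclear RNA. mt-Tl2 had 208, 69 and 177 nuclear reads, a log2 ratio of -1.49 at 12 h (-1.91 to -1.09), and was higher at 24 h than at 12 h by 1.43. mt-Ts2 had 136, 71 and 130 nuclear reads and a log2 ratio of -0.84 at 12 h, under 2-fold, though it passed by total counts. In cytoplasmic RNA the log2 ratios at 12 h were -0.94 for mt-Th, -0.12 for mt-Ts2 and -1.0 for mt-Tl2, and none passed; with TMM over all 6 groups mt-Th and mt-Tl2 did.

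mt-Tm, the methionine tRNA, was higher after treatment in cytoplasmic RNA and too sparse to compare in nuclear RNA. It had 15, 4 and 15 nuclear reads and 30, 197 and 314 cytoplasmic reads at 0 h, 12 h and 24 h. The cytoplasmic log2 ratio was 3.18 at 12 h (2.62 to 3.79) and 3.50 at 24 h (2.96 to 4.09), and it stayed between 2.42 and 3.58 under the other scalings. Its neighbours did not move alike: mt-Tq, on the other strand, had 20, 10 and 28 cytoplasmic reads, and mt-Nd2, which begins at the next base, had log2 ratios of 0.32 and 1.04.

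Of the remaining tRNAs, mt-Tt, the threonine tRNA, was lower in cytoplasmic RNA at 12 h, with 61, 19 and 39 reads and a log2 ratio of -1.22 (-2.04 to -0.46). mt-Te, the glutamate tRNA, was higher at 24 h, with 14, 13 and 33 reads and a log2 ratio of 1.35 (0.41 to 2.36). mt-Tl1, mt-Tn and mt-Ty were compared in cytoplasmic RNA and did not pass, with log2 ratios from -0.88 to -0.18; with TMM over all 6 groups mt-Tl1 and mt-Ty passed as lower at 12 h. mt-Tf, mt-Tv, mt-Ti, mt-Tq, mt-Tw and mt-Ta had at most 28 reads in any group and were compared in neither fraction. The 5 tRNAs in the copied stretch, mt-Ts1, mt-Td, mt-Tk, mt-Tg and mt-Tr, had 0, 1 and 1 nuclear reads and 4, 1 and 5 cytoplasmic reads in all, and mt-Td had none in any group. In cytoplasmic RNA at 24 h, where Actc1, abundant at 12 h, had 1 read, the log2 ratio against 0 h was 3.19 for mt-Rnr1 and 3.50 for mt-Tm, beside 3.38 and 3.18 at 12 h. For mt-Co3 it was -0.44, beside -1.42. The 24 h group was not free of markers of other cells, with 253 Mbp reads against 66 at 12 h. What part such reads have in these values was not tested.

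Along the mitochondrial DNA, levels per base were lower in the copied stretch. Summed over its 6 whole mRNAs there were 58.0, 29.0 and 44.0 reads per kilobase in the nuclear groups and 1241, 460 and 1013 in the cytoplasmic groups at 0 h, 12 h and 24 h. The 5 mRNAs outside it had 4998, 5044 and 7630 reads per kilobase in the nuclear groups and 27740, 19962 and 38030 in the cytoplasmic groups. By the reads counted to the genes themselves, without their copies, the copied mRNAs were thus at least an order of magnitude below the others in each of the 6 groups. Per base, mt-Co1 had 486 times the reads of mt-Co2 in cytoplasmic RNA at 0 h (452 to 523), although mt-Co1 lies partly in the stretch.

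The copies' own reads were fewer than those of the mRNAs outside the stretch. Those 6 mRNAs had 174, 87 and 132 nuclear reads and 3722, 1378 and 3037 cytoplasmic reads at 0 h, 12 h and 24 h. All 11 annotated copies of mitochondrial genes at 95% identity or more, on chromosomes 1, 2 and 13, had 1867, 701 and 1106 nuclear reads and 5200, 1826 and 4225 cytoplasmic reads in all at 0 h, 12 h and 24 h. These 11 include copies of mt-Co1, mt-Nd2, mt-Nd4 and mt-Nd5, so their sum and that of the 6 mRNAs are not like sets. Gm28661, the copy of mt-Co2, had 955, 224 and 512 cytoplasmic reads. Gm28437, the copy of mt-Co3, had 323, 105 and 183 nuclear reads and 1642, 493 and 1157 cytoplasmic reads. Adding all the copies brought the shares of the mitochondrial genes to 0.654%, 0.522% and 0.674% of nuclear counts and 5.48%, 5.09% and 6.78% of cytoplasmic counts. The part that placement of equal matches has in the low values was not tested.

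Gm28438, the copy of mt-Nd3, had more reads than its gene in all 6 groups. It had 1356, 506 and 731 nuclear reads and 1067, 406 and 1095 cytoplasmic reads, against 49, 7 and 18 nuclear and 43, 11 and 39 cytoplasmic reads of mt-Nd3 itself. It was lower in nuclear RNA at 12 h, with a log2 ratio of -1.32, as were Gm28437 at -1.52 and Gm10222, the copy of mt-Nd4l, at -1.27. In cytoplasmic RNA at 12 h, Gm28661 was lower at -1.63, Gm28437 at -1.27 and Gm28439, the copy of the first part of mt-Nd4, at -1.84. Of the 8 copies with a mean count of 10 or more in some group, none of those compared passed at 24 h against 0 h.

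**Figure D4:**
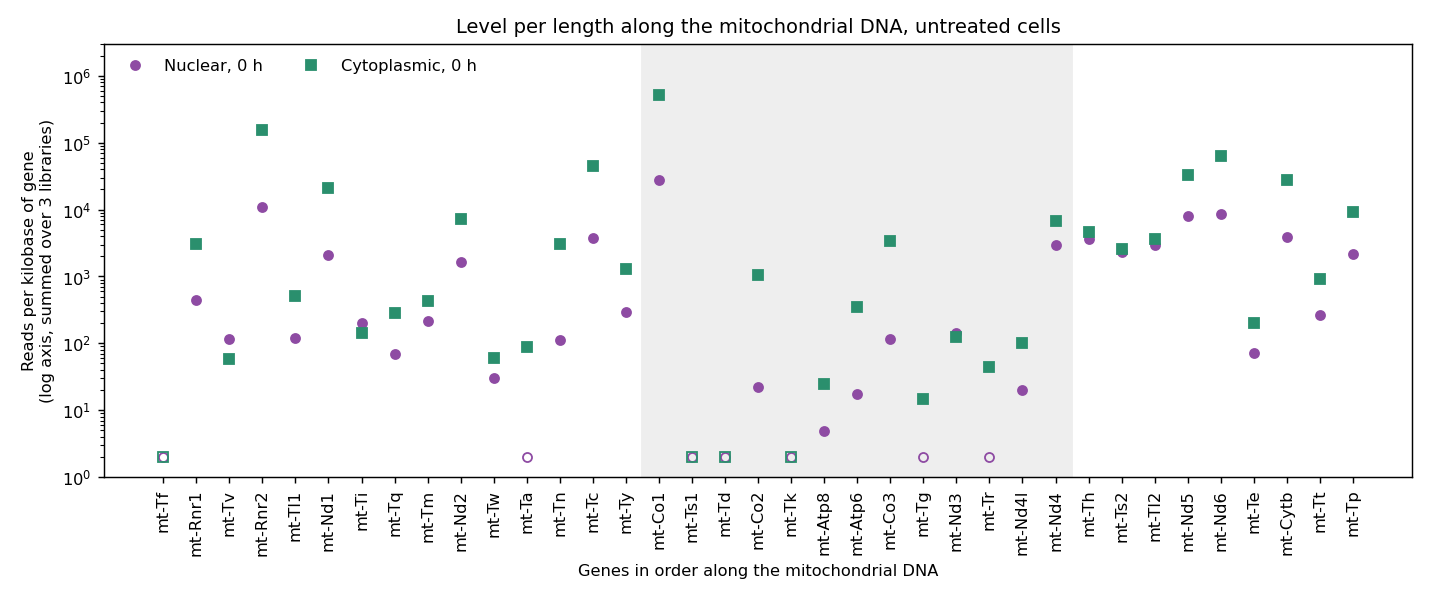
Reads per kilobase of each member in untreated cells, on a log axis, with genes in their order along the mitochondrial DNA, nuclear 0 h as circles and cytoplasmic 0 h as squares. The shaded genes lie wholly or partly in the stretch copied on chromosome 1, open symbols at the bottom stand for 0 reads, and the shaded genes between mt-Co1 and mt-Nd4 are the lowest of the mRNAs.

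By reads per base, the order of the well covered members in nuclear RNA at 0 h was mt-Co1 with 28074 reads per kilobase, mt-Rnr2 with 10942, mt-Nd6 with 8613, mt-Nd5 with 8085, mt-Cytb with 3889, mt-Tc with 3712 and mt-Th with 3597. In cytoplasmic RNA at 0 h it was mt-Co1 with 519102 reads per kilobase, mt-Rnr2 with 155396, mt-Nd6 with 62383, mt-Tc with 45636, mt-Nd5 with 33067, mt-Cytb with 27999 and mt-Nd1 with 20710. The order of the first 3 was the same in both fractions, and mt-Th, with 4582 reads per kilobase in cytoplasmic RNA, came among the first 7 in nuclear RNA alone. mt-Nd5 and mt-Cytb, next to each other in both orders, differed by 2.08 times in nuclear RNA at 0 h (2.01 to 2.15) and by 1.18 times in cytoplasmic RNA (1.17 to 1.20).

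Nuclear against cytoplasmic comparisons use TMM over all 6 groups. The fractions were checked on genes of known place: the nuclear RNAs Malat1 and Neat1 were higher in nuclear RNA, with log2 ratios of 2.76 to 3.26 for Malat1 and 4.15 to 5.33 for Neat1, and Actb mRNA was lower, from -3.79 to -2.88. Other references went against their place: Rn7sk, a small nuclear RNA, was lower in nuclear RNA, at -2.96 to -2.12, and Gapdh mRNA was higher, at 1.46 to 1.93. Of the references listed, 4 of 5 nuclear RNAs were higher in nuclear RNA at each time, and 7, 7 and 6 of 10 cytosolic mRNAs were lower there at 0 h, 12 h and 24 h.

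All members compared had a nuclear to cytoplasmic ratio below 0 on this log2 scale, most by more than 2-fold. At 0 h, 21 of 23 passed as lower in nuclear RNA, beside 32.7% of all genes compared that passed as lower and 47.5% that passed as higher. At 12 h, 23 of 23 passed, beside 29.3% lower and 46.4% higher. At 24 h, 20 of 23 passed, beside 28.9% lower and 45.7% higher. No member passed as higher at any time. By total counts, 17, 17 and 19 of the 23 passed as lower at 0 h, 12 h and 24 h. That scaling moves the median of all genes by 1.41, 1.10 and 0.96, so the shares above do not apply to it. The share of all genes by total counts is not given. With TMM the median of all genes was 0.78, 0.81 and 0.75 at 0 h, 12 h and 24 h, so the members' ratios lie farther still below the typical gene.

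The summed mRNAs had nuclear to cytoplasmic log2 ratios of -4.49, -4.24 and -4.32 at 0 h, 12 h and 24 h. The summed rRNAs had -4.61, -4.67 and -4.27, and the summed tRNAs -2.97, -3.26 and -2.74. The tRNAs were thus the least depleted kind in nuclear RNA at each time. By total counts the mRNA values were -3.08, -3.14 and -3.37, since that scaling moves the median of all genes by 1.41, 1.10 and 0.96.

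Within each kind the ratio varied from gene to gene. mt-Co2 had -6.41, -5.81 and -5.88, mt-Co3 had -5.68, -5.01 and -5.58 and mt-Co1 had -5.01, -5.06 and -5.31 at 0 h, 12 h and 24 h. At the other end among the well covered mRNAs, mt-Nd4 had -1.98, -2.64 and -2.72 and mt-Nd5 had -2.84, -2.78 and -2.45. By their own reads, the complex IV mRNAs were therefore depleted in nuclear RNA by about 2 log2 units or more beyond mt-Nd5 and mt-Nd4 at each time. For mt-Co2 and mt-Co3 this rests on at most 26 and 91 nuclear reads in a group. With its copy added, mt-Co3 had -4.18, -4.05 and -4.28, less than 2 log2 units beyond mt-Nd5 at each time. With their copies, mt-Co1 and mt-Co2 kept the distance. mt-Nd6 lay between, at -3.66, -3.35 and -2.96.

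The run of mt-Th, mt-Ts2 and mt-Tl2 between mt-Nd4 and mt-Nd5 was among the least depleted in nuclear RNA, as was the sparsely read mt-Nd3, at -0.61 (-1.24 to 0.01), -1.69 and -1.79 at 0 h, 12 h and 24 h. mt-Th had -1.15, -1.95 and -0.71, mt-Ts2 had -0.94, -1.54 and -0.87 and mt-Tl2 had -1.12, -1.49 and -0.72 at 0 h, 12 h and 24 h. The intervals of these 3 tRNAs stayed below 0 on this scale, and each of them was lowest at 12 h. By total counts mt-Th, mt-Ts2, mt-Tl2 and mt-Nd3 stood at 0.26, 0.47, 0.29 and 0.80 at 0 h, and the 3 tRNAs were above 0 at 24 h as well, so their side of 0 depends on the scaling. mt-Tc and mt-Tn, by contrast, had -4.42 and -5.59 at 0 h.

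**Figure D5:**
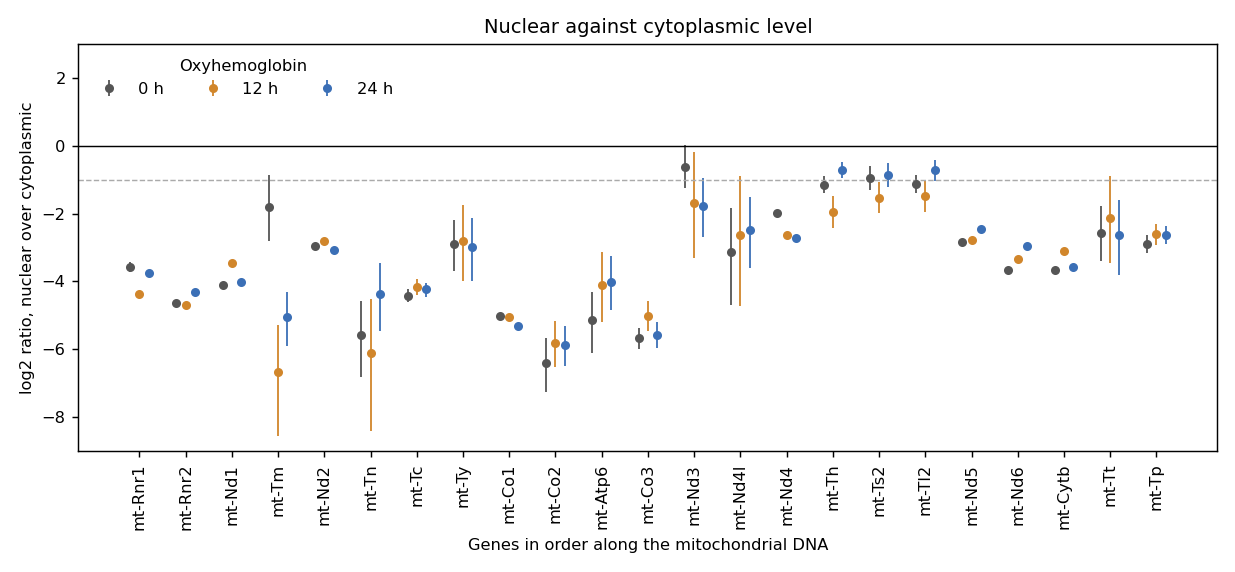
log2 ratio of nuclear over cytoplasmic level for the members compared, with genes in their order along the mitochondrial DNA, at 0 h, 12 h and 24 h. Points are groups of 3 summed libraries, bars are exact 95% counting intervals and the dashed line marks 2-fold lower; mt-Th, mt-Ts2 and mt-Tl2 stand together near the dashed line.

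The nuclear to cytoplasmic ratio also moved with treatment for single genes. For mt-Nd4 it was lower by 0.66 on the log2 scale at 12 h than at 0 h (shift -0.66, interval -0.74 to -0.58) and lower again at 24 h (shift -0.74, -0.81 to -0.67). For mt-Nd6 it was higher at 12 h (shift 0.31, 0.24 to 0.38) and at 24 h (0.70, 0.65 to 0.76). For mt-Rnr1 the shift was -0.79 at 12 h and -0.19 at 24 h. By total counts the 12 h and 24 h shifts were -0.97 and -1.20 for mt-Nd4, -0.01 and 0.25 for mt-Nd6 and -1.10 and -0.65 for mt-Rnr1, so the 12 h shift of mt-Nd6 rests on the scaling. The shift intervals are normal approximations, and those given exclude 0 for counting error alone. For mt-Tm the shift at 24 h was -3.26 (-4.42 to -2.09), and it rests on 15 nuclear reads at each of those times. On the same TMM scale, Malat1 shifted by 0.23 and -0.26 and Actb by 0.90 and 0.79.

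Nuclear genes whose products make, cut, modify and translate mitochondrial RNA were read from fixed lists; with the reference RNAs there were 15 lists, and 215 of 221 symbols matched. Their counts are to be read against the backgrounds given above. List medians in the comparisons with 0 h lay between -0.44 and 0.39 for the lists of transcription, biogenesis, RNA processing, translation and respiratory complexes, and the median of all genes was within 0.06 of 0. For mitochondrial transcription and DNA maintenance, none of 19 passed in nuclear RNA at 12 h and 1 at 24 h, and in cytoplasmic RNA 1 of 17 passed at 12 h and none at 24 h. That 1 at 12 h was Top3a, a topoisomerase that separates daughter molecules of mitochondrial DNA, with 20 reads against 66 at 0 h and a log2 ratio of -1.26. None of 8 biogenesis regulators passed in any of the 4 comparisons with 0 h; Esrra, a nuclear receptor that drives respiratory genes, had log2 ratios of 0.51 and 0.26 in nuclear RNA and 0.83 and 0.85 in cytoplasmic RNA.

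Factors that process the RNA changed little in nuclear RNA. Of the processing, stability and decay factors, 1 of 21 was lower in nuclear RNA at each time, and 2 of 18 were higher and 1 lower in cytoplasmic RNA at each time. Fastkd3, a member of a family of mitochondrial RNA-binding proteins, was higher in cytoplasmic RNA at 12 h, with 150 reads against 89 at 0 h and a log2 ratio of 1.22. Mtpap, the mitochondrial poly(A) polymerase, was higher in cytoplasmic RNA at 24 h, with 33 reads against 15 and a log2 ratio of 1.25. Of the tRNA modification enzymes, none of 16 passed in nuclear RNA, while in cytoplasmic RNA 3 of 15 were higher and 1 lower at 12 h, and 1 was higher and 1 lower at 24 h. Nsun3, which modifies the anticodon of the mitochondrial methionine tRNA, had 23, 48 and 47 cytoplasmic reads at 0 h, 12 h and 24 h, with log2 ratios of 1.53 and 1.14.

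The translation machinery gave mixed counts. Of the mitochondrial aminoacyl-tRNA synthetases, 1 of 18 was lower in nuclear RNA at 12 h and none passed at 24 h, and in cytoplasmic RNA 1 of 17 was higher and 3 lower at 12 h and 3 were lower at 24 h. Of the translation factors, none of 13 passed in nuclear RNA at 12 h, 1 was higher and 1 lower at 24 h, and in cytoplasmic RNA 1 was higher and 2 lower at 12 h and none passed at 24 h. Of the mitochondrial ribosomal proteins, 4 of 70 were higher and 2 lower in nuclear RNA at 12 h, 5 higher at 24 h, and in cytoplasmic RNA 6 of 66 were higher and 2 lower at 12 h and 5 higher and 2 lower at 24 h.

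The nuclear-encoded partners of the mitochondrial subunits were called at shares near the backgrounds in complex I. Of its nuclear-encoded subunits, 4 of 34 were higher and 1 lower in nuclear RNA at 12 h, 5 were higher at 24 h, and in cytoplasmic RNA 5 of 25 were higher and 1 lower at each time. Ndufa13, Ndufa1 and Ndufa2, accessory subunits, were higher in all 4 comparisons; Ndufa13 had 340, 705 and 883 nuclear reads and 583, 1759 and 1980 cytoplasmic reads, with log2 ratios of 1.15 and 1.55 in nuclear RNA and 2.06 and 1.87 in cytoplasmic RNA, and by total counts the nuclear 12 h value was 0.93 and no longer called. The list medians of -0.04 and -0.12 in nuclear RNA and 0.24 and -0.02 in cytoplasmic RNA stayed near those of all genes. Complex III had 1 of 7 higher in nuclear RNA at 24 h, Uqcrfs1, the iron-sulfur subunit, at 1.02 (0.72 and not called by total counts), and none of 7 or 6 in the other comparisons. Complex IV had none of 10 in nuclear RNA and 1 of 7 lower in cytoplasmic RNA at each time, Cox6c, at -1.14 and -1.05; by total counts the second was -0.97 and not called. Complex V had none of 13 in nuclear RNA, and in cytoplasmic RNA none of 9 at 12 h and 1 higher at 24 h.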

How the data were processed

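HISAT2 2.2.0, featureCounts and DESeq2, and the build GRCm38, are named in the submitters' processing notes; the annotation release, the strand setting and the handling of reads with several matches are not stated there. The authors deposited 1 estimated count per gene and group, each the mean of 3 libraries (3 times each value is whole within 0.001; 28.1% to 34.9% are not whole). The TPM values were deposited by the authors per group and each sum to 1000000. All columns were used.

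A test across libraries with edgeR had been planned; with 1 mean per group none could be run, so folds with exact counting intervals replace it, and counts were used as 3-library sums. Scaling used edgeR 4.0.16 TMM factors (R 4.3.3) within a fraction for time comparisons and over all 6 groups for nuclear against cytoplasmic ones; DESeq2 1.42.0 gave the median-of-ratios size factors. Intervals (scipy 1.17.1) are Clopper-Pearson at 95%, except those of the shifts in nuclear to cytoplasmic ratio, which are normal approximations at 95%. A call needed 2-fold and an interval without 0, in genes reaching the equivalent of a mean count of 10 in a group; a group with no reads was set at 3 reads. The calling step was tested on simulated data drawn with counting error alone, which cannot show how the calls fare under spread between libraries. Coordinates, genes and sequences come from GENCODE M21 (GRCm38), and nuclear copies from BLAST+ 2.17.0 (megablast, word size 16, at least 95% identity over at least 50% of the copy). Shares have Clopper-Pearson intervals.

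All 37 genes were named, and from each list at most 3 genes of 5 CPM or more with the largest ratio against 0 h, reference RNAs, and copies with a mean count of 10 or more. The genes and lists were chosen with earlier results of these data known. Some genes that this rule selects are not reported here.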

Additional observations from a re-analysis of the deposited data

How the results depend on the processing

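No paired analysis was possible because the deposited columns are means of 3 libraries and carry no replicate number, and leaving out single replicates was not run for the same reason. The summed mRNA log2 ratio in nuclear RNA at 12 h and 24 h against 0 h was -0.58 and -0.12 by total counts and -0.61 and -0.35 as log2(TPM + 1), and -0.38 at 12 h with nuclear copies added. In cytoplasmic RNA it was -0.51 and 0.17 by total counts, -0.61 and 0.0124 with TMM over all 6 groups, -0.50 and 0.0568 with median-of-ratios size factors, and -1.20 and -0.42 as log2(TPM + 1). The nuclear to cytoplasmic value at 0 h, 12 h and 24 h was -3.08, -3.14 and -3.37 by total counts, -4.75, -4.54 and -4.60 with median-of-ratios size factors, -4.46, -4.23 and -4.31 with copies added, and -3.59, -3.01 and -3.52 as log2(TPM + 1); TMM over the pair gave -4.45 and -4.15 at 0 h and 12 h. By total counts mt-Th and mt-Tl2, called as lower, turned to 0.26 and 0.29 at 0 h, and mt-Ts2 and mt-Nd3, not called, to 0.47 and 0.80, since that scaling moves the median of all genes by 1.41 there, and by -0.22 and -0.30 in nuclear RNA at 12 h and 24 h. At 1.5-fold, 9 and 8 members were called in nuclear RNA at 12 h and 24 h and 13 in cytoplasmic RNA at 12 h, and at 4-fold 2 and 1 in nuclear RNA and 2 and 2 in cytoplasmic RNA. In alternatives chosen after seeing the data, 7 members were called in nuclear RNA at 12 h by total counts and 10 in cytoplasmic RNA at 12 h with TMM over all 6 groups, and copies were added to single members. The share of all genes at these fold limits and scalings is not given, so these counts have no background to be read against. The share of counts in the nuclear groups was 0.787%, 0.618% and 0.857% without the most abundant identifier and 0.654%, 0.522% and 0.674% with copies added, and with copies the cytoplasmic groups had 5.48%, 5.09% and 6.78%. TMM computed without the 37 genes moved none of the values of single members beyond their counting intervals. Where no cause is given, the cause was not tested. Low counts were most frequent among the tRNAs: in each group 8 to 15 of the 22 had under 10 reads.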

Other observations

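Other nuclear genes tied to mitochondrial turnover and to the sensing of mitochondrial nucleic acids were also read. Of the mitophagy genes, 1 of 12 was lower in nuclear RNA at each time, and in cytoplasmic RNA 1 of 11 was higher and 1 lower at 12 h and 1 was lower at 24 h. The list medians were -0.11 and -0.07 in nuclear RNA and -0.23 and -0.45 in cytoplasmic RNA.

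Of the sensors, 1 of 8 was higher in nuclear RNA at 12 h, 1 was higher and 1 lower at 24 h, and in cytoplasmic RNA 1 of 6 was higher at 12 h and none at 24 h. Tlr9, the receptor for unmethylated CpG DNA, had 993, 3250 and 2372 nuclear reads and 972, 1409 and 1408 cytoplasmic reads at 0 h, 12 h and 24 h. It was higher in nuclear RNA at both times, with log2 ratios of 1.81 and 1.43. In cytoplasmic RNA it stood at 1.00 at 12 h, at the threshold, and was no longer called by total counts, with TMM over all 6 groups or with median-of-ratios size factors; at 24 h it stood at 0.65. Cgas, the cytosolic DNA sensor, did not pass in the 4 comparisons with 0 h, with log2 ratios from -0.86 to 0.01.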
